A study of Mus musculus with 6 samples.

Results

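The HoxA cluster is a run of homeobox genes on mouse chromosome 6, and 10 of its genes, from Hoxa2 to Hoxa13, were examined here by name among the 17312 genes of the deposited table, where all 10 have a row. RNA was sequenced in bulk from 6 leg tumors of mice, 3 carrying a Cre-inducible SS18-SSX2 allele and 3 carrying a Cre-inducible SS18-SSX1 allele. In both genotypes TATCre, a recombinase protein that crosses cell membranes, was delivered into soft tissue over the shin, and tumors were taken about 1 year later. SS18-SSX is the fusion oncoprotein of synovial sarcoma and alters BAF chromatin remodelling complexes. No untreated or tumor-free tissue was analysed here, so no value below is a change against normal leg. The sources used here give no strain, no age at injection and no promoter for the fusion alleles. Whether each tumor is from its own mouse is also unstated, and p-values cover the spread between these 6 samples only.

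Hox genes encode homeodomain transcription factors that give cells their position along the head-to-tail axis and, for the posterior genes, along the limb. Their order on the chromosome matches the order in which they act, with Hoxa2 and its neighbours used near the head and Hoxa13 used at the tail end and in the hand and foot plate. Outside their proper domains the clusters are kept silent by Polycomb proteins, and trithorax proteins and BAF complexes oppose that silencing. Adult limb cells keep part of the embryonic HoxA pattern as a memory of where they arose.

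Expression was highest at the Hoxa13 end of the cluster in every tumor. Levels are FPKM, reads scaled by the authors to the length of the gene and the size of the library, and levels of different genes are compared on that per-length scale. The authors' gene lengths are unstated, and those recovered from the values differ from the annotated exon length for 5 of the 10 genes, most for Hoxa6 (1731 against 874 bases) and Hoxa2 (2423 against 1775 bases). Hoxa13, which patterns the hand and foot, had 11.1, 1.67 and 8.82 FPKM in SS18-SSX2 tumors 1, 2 and 3 and 30.2, 12.9 and 2.398 FPKM in SS18-SSX1 tumors 1, 2 and 3. It was the highest of the 10 genes in each tumor, and its values spread widely within each genotype. Together Hoxa9, Hoxa10, Hoxa11 and Hoxa13 took 73.0%, 71.3% and 77.75% of the summed FPKM of the 10 genes in SS18-SSX2 tumors and 66.9%, 74.8% and 62.6% in SS18-SSX1 tumors.

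Sequence just upstream of a Hox start is often rich in CpG dinucleotides, and 3 such stretches are shown to set the gene with the highest level beside Hoxa10, the next in order, and Hoxa2, at the opposite end of the cluster. Each is the 250 bases before a start site in RefSeq on GRCm38.p6, read 5' to 3' on the minus strand, with CpG in capitals. Of the 10 genes, 9 have an entry in the RefSeq table, with 10 start sites in all. They lie at chr6:52260881-52261130 for Hoxa13, chr6:52240855-52241104 for the upstream start of Hoxa10 and chr6:52164832-52165081 for Hoxa2.
Hoxa13: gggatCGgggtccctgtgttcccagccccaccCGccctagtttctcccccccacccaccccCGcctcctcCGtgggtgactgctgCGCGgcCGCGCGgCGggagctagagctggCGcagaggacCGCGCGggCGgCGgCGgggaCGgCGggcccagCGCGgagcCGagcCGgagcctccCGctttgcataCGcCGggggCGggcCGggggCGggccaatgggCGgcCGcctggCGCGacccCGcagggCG
Hoxa10: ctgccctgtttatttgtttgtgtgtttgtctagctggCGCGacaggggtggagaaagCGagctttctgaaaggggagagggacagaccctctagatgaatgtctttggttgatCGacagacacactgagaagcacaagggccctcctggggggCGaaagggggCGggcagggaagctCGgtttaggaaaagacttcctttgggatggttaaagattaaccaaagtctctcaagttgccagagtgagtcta
Hoxa2: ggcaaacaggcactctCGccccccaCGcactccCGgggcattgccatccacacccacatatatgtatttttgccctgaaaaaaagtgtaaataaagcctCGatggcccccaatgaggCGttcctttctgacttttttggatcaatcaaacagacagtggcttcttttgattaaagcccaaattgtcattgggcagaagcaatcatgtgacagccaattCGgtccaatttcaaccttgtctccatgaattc

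The Hoxa13 stretch holds 35 CpG and 80.0% G and C, and 3.0% of the 32851 promoters in the RefSeq table have as many CpG in their 250 bases. Hoxa10 has 7 CpG before this start and 20 before its other start, Hoxa2 has 6, and Hoxa9 has 3, against a median of 6 over all promoters. Across the 10 entries the median was 15.5 CpG. For 8 of the 10 the first transcribed bases were found in an annotated transcript of the gene. All 250 bases of the Hoxa3 window lie in annotated exons, as do 98 for Hoxa11, 78 for Hoxa7 and 50 for Hoxa6. The stretches printed above hold no annotated exon bases. The letters TATAAA of the TATA box, searched on both strands, were found in 1 of the 10 entries, the second start of Hoxa10, against 12.4% of all promoters. A PBX-HOX half-composite, TGATNNAT on either strand, was found in 1 of the 10, before Hoxa2, against 7.7% of all promoters, and the GC box GGGCGG in 4 of the 10 against 32.7%. These counts describe letters in a window and no binding was measured.

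Levels of the 10 genes varied together from tumor to tumor. SS18-SSX1 tumor 1 had the highest level of all 10 genes, by a factor over the second tumor of 1.86 for Hoxa11 to 3.5 for Hoxa9. The second place went to SS18-SSX1 tumor 2 for 7 genes and to SS18-SSX2 tumor 1 for Hoxa2, Hoxa4 and Hoxa7. At the low end, SS18-SSX2 tumor 2 was lowest for 8 genes, and SS18-SSX1 tumor 3 for Hoxa7 and Hoxa9. SS18-SSX1 tumor 3 was among the lowest 2 tumors for 8 of the 10 genes, so the highest and one of the lowest HoxA levels were found within the same genotype. In bulk tissue, fewer cells that express a gene and less RNA per cell cannot be told apart.

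**Figure D1:**
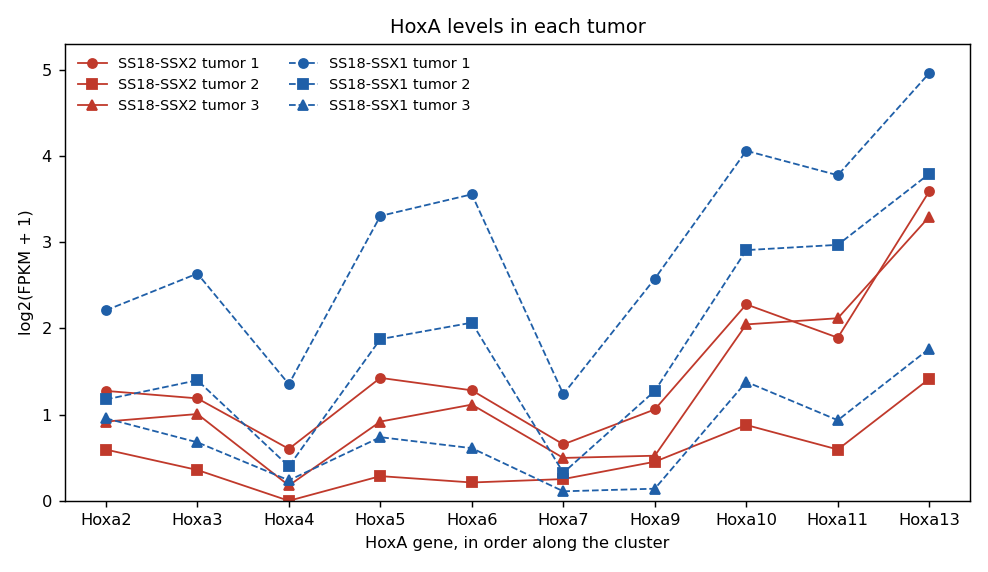
Level of each HoxA gene in each tumor, as log2(FPKM + 1), with the genes in order along the cluster; red points and solid lines are the 3 SS18-SSX2 tumors, blue points and dashed lines the 3 SS18-SSX1 tumors, and each line is 1 tumor. SS18-SSX1 tumor 1 lies above the others at all 10 genes, SS18-SSX1 tumor 3 lies near the bottom, and every line is highest at Hoxa13.

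The anterior genes were low. Hoxa2, a selector gene of the hindbrain and second branchial arch, had 1.42, 0.510 and 0.891 FPKM in SS18-SSX2 tumors 1, 2 and 3 and 3.63, 1.26 and 0.941 FPKM in SS18-SSX1 tumors 1, 2 and 3. Hoxa3, needed for thymus and parathyroid, had 1.28, 0.281 and 1.01 FPKM in SS18-SSX2 tumors and 5.22, 1.64 and 0.6003 FPKM in SS18-SSX1 tumors. In both genes only SS18-SSX1 tumor 1 stood clear of the rest. Hoxa4, which acts in the neck vertebrae, had 0.518, 0 and 0.131 FPKM in SS18-SSX2 tumors and 1.56, 0.319 and 0.179 FPKM in SS18-SSX1 tumors. Steps between low values gave the reads behind these numbers, and Hoxa4 rests on 12, 0 and 3 reads in SS18-SSX2 tumors 1, 2 and 3 and on 33, 7 and 5 reads in SS18-SSX1 tumors 1, 2 and 3. A count of 0 reads in SS18-SSX2 tumor 2 allows up to 0.258 FPKM (3 reads), so at this depth that tumor cannot be set apart from the other low ones.

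Among the central genes, Hoxa5 and Hoxa6 were well above the neighbours that flank them in SS18-SSX1 tumor 1. Hoxa5, which shapes the neck and upper thorax and the lung, had 1.69, 0.219 and 0.891 FPKM in SS18-SSX2 tumors 1, 2 and 3 and 8.88, 2.67 and 0.668 FPKM in SS18-SSX1 tumors 1, 2 and 3. For Hoxa6, a thoracic patterning gene, the values were 1.43, 0.159 and 1.17 FPKM in SS18-SSX2 tumors and 10.8, 3.19 and 0.527 FPKM in SS18-SSX1 tumors. The ratio of the highest to the lowest tumor was 67.8 for Hoxa6, where the lowest rests on 2 reads. Hoxa7, between Hoxa6 and Hoxa9, was low throughout, with 0.574, 0.191 and 0.412 FPKM in SS18-SSX2 tumors and 1.36, 0.252 and 0.0792 FPKM in SS18-SSX1 tumors. Hoxa4 and Hoxa7 reached 1 FPKM in 1 tumor each, SS18-SSX1 tumor 1.

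The posterior genes Hoxa10 and Hoxa11 followed Hoxa13 in level, while Hoxa9 did not. Hoxa9, a regulator of blood stem cells that also acts in the limb, had 1.09, 0.369 and 0.437 FPKM in SS18-SSX2 tumors 1, 2 and 3 and 4.97, 1.42 and 0.102 FPKM in SS18-SSX1 tumors 1, 2 and 3. Hoxa10, which patterns the lumbar spine, the uterus and the upper limb segment, had 3.85, 0.840 and 3.13 FPKM in SS18-SSX2 tumors and 15.7, 6.51 and 1.603 FPKM in SS18-SSX1 tumors. Hoxa11, a gene of the forearm and shin segment of the limb, had 2.71, 0.510 and 3.34 FPKM in SS18-SSX2 tumors and 12.7, 6.83 and 0.911 FPKM in SS18-SSX1 tumors. In all 3 genes SS18-SSX1 tumors 1 and 2 were above every SS18-SSX2 tumor, and SS18-SSX1 tumor 3 was below SS18-SSX2 tumors 1 and 3.

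In the better covered genes the spread between tumors was wider than counting error. Hoxa10 had 183, 20 and 147 reads in SS18-SSX2 tumors and 683, 293 and 92 reads in SS18-SSX1 tumors. Its 95% exact Poisson interval, which covers counting error only, was 14.5 to 16.9 FPKM in SS18-SSX1 tumor 1 and 1.29 to 1.97 FPKM in SS18-SSX1 tumor 3. The 2 lowest tumors could not be ordered for every gene, since for Hoxa13 the interval was 1.12 to 2.38 FPKM in SS18-SSX2 tumor 2 and 1.96 to 2.91 FPKM in SS18-SSX1 tumor 3.

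Ordered by mean log2(FPKM + 1) over the 6 tumors, an order that depends on the lengths the authors used, the genes ran Hoxa13, Hoxa10, Hoxa11, Hoxa6, Hoxa5, Hoxa3, Hoxa2, Hoxa9, Hoxa7 and Hoxa4. Mean levels over the 6 tumors were 11.2 FPKM for Hoxa13, 5.27 for Hoxa10, 4.50 for Hoxa11, 2.87 for Hoxa6, 2.503 for Hoxa5, 1.67 for Hoxa3, 1.44 for Hoxa2, 1.40 for Hoxa9, 0.478 for Hoxa7 and 0.450 for Hoxa4. At 3 of the 9 steps in this order the upper gene was higher in 6 of 6 tumors. These were Hoxa13 over Hoxa10, with a mean difference of 0.88 ± 0.37 on the log2 scale (SD, n = 6), Hoxa11 over Hoxa6, with 0.57 ± 0.32, and Hoxa9 over Hoxa7, with 0.49 ± 0.54. Each gave p = 0.0312 in an exact two-sided sign-flip permutation test, the smallest that 6 tumors can give, and 0.0938 after Benjamini-Hochberg adjustment over the 9 steps. The steps were set by an order taken from these same values, and 3 steps at the smallest p cannot pass adjustment over 9. The other 6 steps had the upper gene higher in 3 or 4 of 6 tumors, with adjusted exact permutation p from 0.281 to 0.875.

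No HoxA gene was called different between the genotypes. limma was fitted to log2(FPKM + 1) over the 13873 genes with at least 1 FPKM in at least 3 tumors, which 8 of the 10 HoxA genes passed and Hoxa4 and Hoxa7 did not. Of these 8, 0 passed a Benjamini-Hochberg adjusted p of 0.05, where 0.0649% of all tested genes (9) were called. An unadjusted p under 0.05 was found for 0 of the 8, against 4.97% of all tested genes. Fold changes are differences of log2(FPKM + 1), SS18-SSX2 minus SS18-SSX1, and are smaller than the true change where a gene is low. The largest were -1.21 for Hoxa6 (95% interval -2.84 to 0.43) and -1.10 for Hoxa5 (-2.58 to 0.39), and Hoxa10 had -1.05 (-2.63 to 0.54) and Hoxa11 -1.03 (-2.74 to 0.69). Hoxa13 had -0.74 (-2.73 to 1.25), Hoxa3 -0.72 (-1.93 to 0.49), Hoxa9 -0.65 (-2.02 to 0.71) and Hoxa2 -0.52 (-1.47 to 0.43), and the adjusted p was 0.997 for each of the 8. All 8 intervals include 0.

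**Figure D2:**
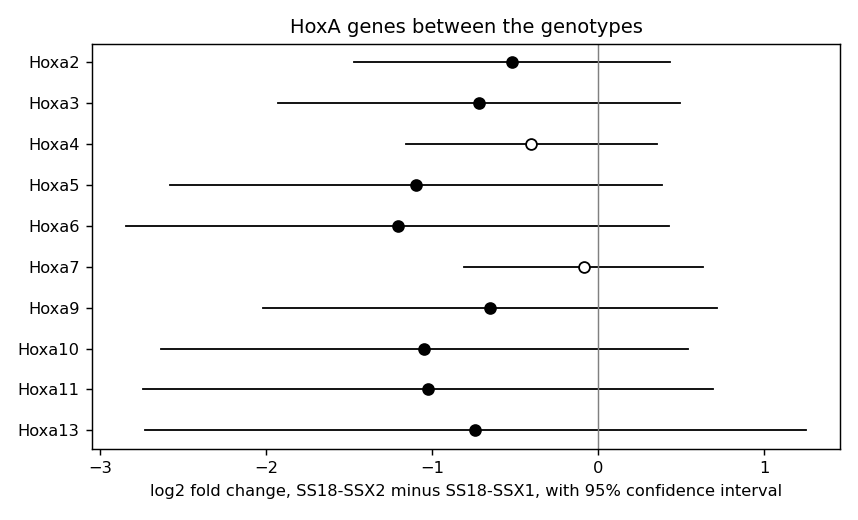
Fitted log2 fold change of each HoxA gene, SS18-SSX2 minus SS18-SSX1, with its 95% confidence interval (3 tumors per genotype); filled points are the 8 tested genes and open points are Hoxa4 and Hoxa7, fitted without the filter on low values. All 10 points lie below 0 and all 10 intervals include 0.

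Group means leaned one way without separating. Hoxa10 averaged 2.61 ± 1.57 FPKM in SS18-SSX2 tumors and 7.93 ± 7.15 FPKM in SS18-SSX1 tumors (SD, n = 3 each). For Hoxa13 the means were 7.18 ± 4.90 FPKM in SS18-SSX2 tumors and 15.1 ± 14.0 FPKM in SS18-SSX1 tumors, and Hoxa6 averaged 0.919 ± 0.672 FPKM in SS18-SSX2 tumors and 4.83 ± 5.31 FPKM in SS18-SSX1 tumors. The fitted fold change was below 0 for 8 of 8 tested genes, with a median of -0.88, and for 10 of 10 without the filter, with a median of -0.73. Among all tested genes 48.9% were below 0 and the median was 0.01. The genes lie side by side and vary together, so their shared direction is not 10 observations. None of the 10 had groups that did not overlap, where 3.76% of all tested genes had every SS18-SSX2 tumor below every SS18-SSX1 tumor.

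Sex-linked expression was split by genotype. Ddx3y, a Y-linked RNA helicase gene, had 0.0148, 0 and 0 FPKM in SS18-SSX2 tumors 1, 2 and 3 and 35.1, 28.2 and 35.2 FPKM in SS18-SSX1 tumors 1, 2 and 3. Xist, the RNA that coats the inactive X chromosome of female cells, had 175, 56.3 and 77.5 FPKM in SS18-SSX2 tumors and 7.03, 3.73 and 3.58 FPKM in SS18-SSX1 tumors. The sex of the mice is not in the labels, and with every tumor of a genotype on the same side, this split and the fusion allele cannot be told apart in any genotype comparison here.

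The size of the HoxA difference turned on single tumors. Without SS18-SSX1 tumor 1 the median over the 8 genes was -0.30, and without SS18-SSX1 tumor 3 it was -1.66. Leaving out SS18-SSX1 tumor 3, 6 of the 8 had an unadjusted limma p under 0.05, where 6.29% of all tested genes did. None passed adjustment. That tumor had the lowest SS18-SSX1 value for all 10 HoxA genes, so leaving it out widens the difference through the genes' own values. The 8 genes vary together, so their count is not 8 observations. With all 6 tumors, and under every other alternative fit, the count was 0. Without SS18-SSX2 tumor 2 the median was -0.55. With both tumors numbered 2 left out, Hoxa13 turned to 0.08 and the other 7 stayed below 0.

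Within the cluster, Hoxa13 took a larger part of the HoxA signal in SS18-SSX2 tumors. Its share of the summed FPKM of the 10 genes was 43.2%, 35.1% and 43.6% in SS18-SSX2 tumors 1, 2 and 3 and 31.8%, 34.8% and 29.9% in SS18-SSX1 tumors 1, 2 and 3. The groups do not overlap, but SS18-SSX2 tumor 2, with 30 Hoxa13 reads, and SS18-SSX1 tumor 2 are nearly level. No test was made of this share.

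The noncoding genes Hoxa11os and Hottip, near the posterior end, shared the highest and the lowest tumor of most HoxA coding genes. Hoxa11os, a transcript read from the opposite strand of Hoxa11, had 4.32, 0.313 and 4.08 FPKM in SS18-SSX2 tumors 1, 2 and 3 and 20.4, 13.9 and 1.43 FPKM in SS18-SSX1 tumors 1, 2 and 3. Of the 2287 exon bases annotated for Hoxa11, 800 lie in exons of Hoxa11os, and with strand handling unstated, reads of the pair cannot be told apart. Hottip, a long noncoding RNA next to Hoxa13 that in human cells helps keep the posterior HoxA genes active, had 1.84, 0.381 and 2.081 FPKM in SS18-SSX2 tumors and 7.20, 2.83 and 0.673 FPKM in SS18-SSX1 tumors. Both were highest in SS18-SSX1 tumor 1 and lowest in SS18-SSX2 tumor 2, like most of the coding genes.

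At the anterior edge the pattern changed. Hotairm1, a noncoding RNA at this end of the cluster, had 1.01, 1.47 and 0.476 FPKM in SS18-SSX2 tumors and 5.64, 4.11 and 1.78 FPKM in SS18-SSX1 tumors, so that its groups did not overlap. Skap2, a coding gene for an adaptor protein just outside this end, had 13.1, 17.8 and 8.21 FPKM in SS18-SSX2 tumors and 29.3, 24.5 and 45.2 FPKM in SS18-SSX1 tumors, with its highest value in SS18-SSX1 tumor 3, where HoxA was low. Neither Hotairm1 (fold change -1.23, limma adjusted p = 0.809) nor Skap2 (-1.29, adjusted p = 0.602) was called. Beyond Hoxa13, Evx1, a homeobox gene, had 2.54, 1.72 and 5.01 FPKM in SS18-SSX2 tumors and 5.74, 6.41 and 1.03 FPKM in SS18-SSX1 tumors, and so kept the low value of SS18-SSX1 tumor 3. Hibadh, a mitochondrial enzyme gene farther out, was highest in that same tumor, at 84.7 FPKM, and lowest in SS18-SSX1 tumor 1, at 22.9 FPKM.

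**Figure D3:**
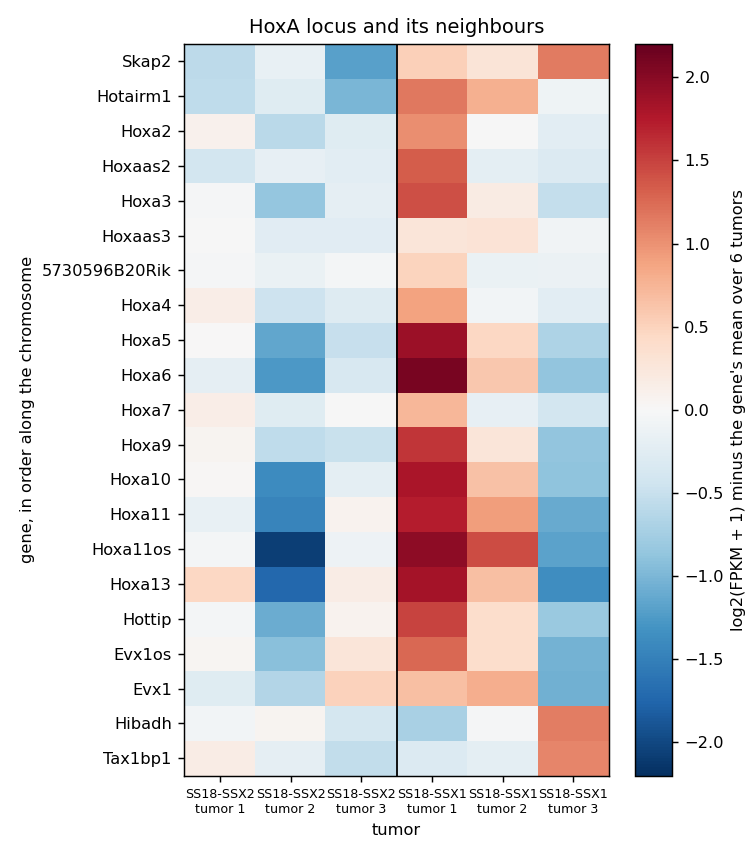
HoxA genes and other genes of the locus, from Skap2 to Tax1bp1, in chromosome order (rows) in each tumor (columns, SS18-SSX2 left of the line), coloured by log2(FPKM + 1) minus the gene's mean over the 6 tumors. From Hoxa2 to Hottip the column of SS18-SSX1 tumor 1 is above the mean and that of SS18-SSX1 tumor 3 is below it, while Skap2, Hibadh and Tax1bp1 have their highest value in SS18-SSX1 tumor 3.

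Across the 6 tumors, which share their libraries and depth with the HoxA values, Pearson's r with the mean of the tested HoxA genes was 0.95 for Hoxa11os, 0.82 for Hoxaas3, 0.80 for Hoxaas2 and 0.70 for Hotairm1. Hoxaas2 had 52 reads in SS18-SSX1 tumor 1 and 0 to 3 in each other tumor, and Hoxaas3 had 1 to 21. Both share exon bases with Hoxa3, and Hoxaas3 also with Hoxa7, and reads in those bases cannot be told apart with strand handling unstated. Beyond Hoxa13 the r was 0.99 for Hottip, 0.95 for Evx1os, a noncoding gene beside Evx1, and 0.77 for Evx1, so the likeness reached past the coding genes at this end. It was 0.13 for Skap2, -0.68 for Hibadh and -0.39 for Tax1bp1.

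Other Hox clusters were also lower in SS18-SSX2 tumors on average, and HoxB and HoxC, but not HoxD, ranked SS18-SSX1 tumor 3 differently from HoxA. Mean log2(FPKM + 1) over the 10 HoxA genes was 1.53, 0.50 and 1.26 in SS18-SSX2 tumors 1, 2 and 3 and 2.97, 1.82 and 0.76 in SS18-SSX1 tumors 1, 2 and 3. Over 9 HoxB genes it was 1.55, 0.24 and 1.83 in SS18-SSX2 tumors and 2.94, 3.00 and 2.45 in SS18-SSX1 tumors. Over 9 HoxC genes it was 2.99, 1.67 and 3.19 in SS18-SSX2 tumors and 4.48, 4.49 and 3.68 in SS18-SSX1 tumors. The 8 HoxD genes were nearer to HoxA, with 1.30, 0.33 and 1.36 in SS18-SSX2 tumors and 3.52, 2.41 and 1.21 in SS18-SSX1 tumors. SS18-SSX1 tumor 3 lay above all SS18-SSX2 tumors for HoxB and HoxC and below SS18-SSX2 tumors 1 and 3 for HoxA and HoxD, and SS18-SSX2 tumor 2 was lowest for all 4 clusters.

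**Figure D4:**
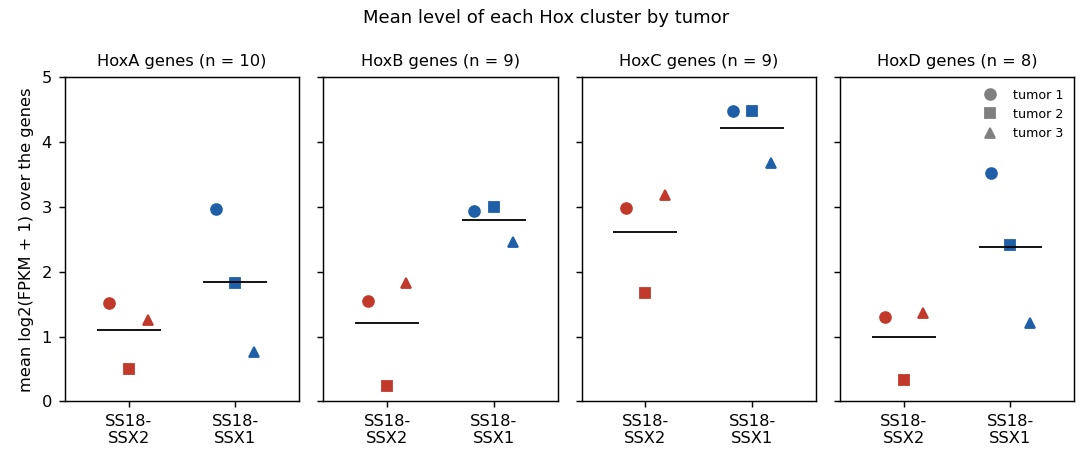
Mean log2(FPKM + 1) over the genes of each Hox cluster in each tumor (points, shaped by tumor number) with the mean of the 3 tumors of a genotype (line), SS18-SSX2 left and SS18-SSX1 right in each panel. The genotypes do not overlap for HoxB and HoxC, and for HoxA and HoxD SS18-SSX1 tumor 3 lies within the range of the SS18-SSX2 tumors.

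Of all Hox FPKM (36 genes), the 10 HoxA genes made up 19.75%, 15.6% and 13.4% in SS18-SSX2 tumors 1, 2 and 3 and 17.8%, 8.86% and 3.64% in SS18-SSX1 tumors 1, 2 and 3. Every SS18-SSX2 tumor was below every SS18-SSX1 tumor for 7 of 9 HoxB genes, 6 of 9 HoxC genes and 1 of 8 HoxD genes. The HoxD gene was Hoxd1, which did not pass the filter. This held for none of the 10 HoxA genes and for 3.76% of all tested genes, so none of 10 is near the general share. No gene of these clusters was called, where 0.0649% of all tested genes were. Some paralogs, which hold the same position in different clusters, showed the same split. In SS18-SSX1 tumor 3 Hoxa10 was at 1.603 FPKM and Hoxc10 at 36.8 FPKM, while in SS18-SSX1 tumor 1 they were at 15.7 and 35.6 FPKM. For Hoxa9, SS18-SSX1 tumor 3 had 0.102 FPKM and SS18-SSX1 tumor 1 had 4.97 FPKM, against 15.1 and 20.8 FPKM for Hoxb9 in the same 2 tumors. Their HoxD paralogs were low in SS18-SSX1 tumor 3 as the HoxA genes were, with Hoxd10 at 1.118 FPKM there and 10.4 FPKM in SS18-SSX1 tumor 1, and Hoxd9 at 1.175 and 9.39 FPKM in the same 2 tumors. Some HoxB and HoxC genes were also low in SS18-SSX1 tumor 3. Hoxc13, a paralog of Hoxa13, had its lowest value there, at 0.764 FPKM, against 5.16 FPKM in SS18-SSX1 tumor 1. Hoxb8 and Hoxc5 were lower in SS18-SSX1 tumor 3 than in SS18-SSX2 tumors 1 and 3. Whether HoxA differs from the other clusters in its response to genotype was not tested.

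None of the listed cofactors and activators of Hox genes was called, where 0.0649% of all tested genes were. TALE cofactors are homeodomain proteins of the PBX, MEIS, PKNOX and TGIF families, several of which bind DNA together with Hox proteins. All 11 were tested, 0 were called, and their median fold change was -0.23. Pbx3 had 13.7, 17.8 and 9.01 FPKM in SS18-SSX2 tumors and 7.46, 5.61 and 16.8 FPKM in SS18-SSX1 tumors (limma adjusted p = 0.997). It was highest in SS18-SSX2 tumor 2, where most HoxA genes were lowest.

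Upstream activators of Hox genes include the CDX factors, the MLL histone methyltransferases and their cofactors, and the H3K27 demethylases. Of 16 listed, 14 were tested and 0 called, where 0.0649% of all tested genes were. Their fold change was above 0 for 12, with a median of 0.23. Among all 13873 tested genes 7096 were above 0 and the median was 0.01. Cdx2, a caudal-type homeobox gene that turns on posterior Hox genes in the embryo and is otherwise known from the gut, was expressed in all tumors. It had 15.8, 8.92 and 25.7 FPKM in SS18-SSX2 tumors and 18.4, 7.999 and 14.9 FPKM in SS18-SSX1 tumors. Kmt2a, which encodes the methyltransferase MLL1, had 21.5, 15.9 and 24.0 FPKM in SS18-SSX2 tumors and 24.8, 14.98 and 7.16 FPKM in SS18-SSX1 tumors, with its lowest value in SS18-SSX1 tumor 3. For Kdm6a, an H3K27 demethylase, the values were 18.3, 12.2 and 11.7 FPKM in SS18-SSX2 tumors and 11.6, 7.69 and 6.53 FPKM in SS18-SSX1 tumors, which do not overlap (limma adjusted p = 0.997). Kdm6a lies on chromosome X and is known to escape X inactivation, so its values and the split in sex-linked genes cannot be told apart.

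Limb patterning genes that act with the posterior HoxA genes were split, with 7 fold changes above 0 and 8 below 0 among 15 tested. Their median was -0.02 and 0 were called, where 0.0649% of all tested genes were. Fgf10, a growth factor of the limb bud mesenchyme, had 7.12, 2.06 and 8.22 FPKM in SS18-SSX2 tumors and 20.0, 15.1 and 6.44 FPKM in SS18-SSX1 tumors (fold change -1.15, adjusted p = 0.997). Its highest and lowest tumors were those of Hoxa10. Tbx5, a T-box gene that marks forelimb rather than hindlimb, had 1.08, 11.6 and 0.937 FPKM in SS18-SSX2 tumors, and in SS18-SSX1 tumors it was listed at 0, 0.111 and 2.31 FPKM. The hindlimb genes Pitx1 and Tbx4 were also high in SS18-SSX2 tumor 2. Pitx1 had 1.66, 75.2 and 3.49 FPKM in SS18-SSX2 tumors and 9.09, 4.57 and 40.9 FPKM in SS18-SSX1 tumors, and Tbx4 had 1.09, 3.63 and 1.27 FPKM in SS18-SSX2 tumors and 0.199, 0.961 and 8.73 FPKM in SS18-SSX1 tumors.

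Among 4907 tested genes lying outside the span of the HoxA coding genes, with an SD of at least 0.5 on the log2 scale, the 8 most like the HoxA mean across the 6 tumors were Dab1, Dlg2, Gdf11, Hottip, Ly6k, Sorcs1, Daam1 and Mfap3l, with Pearson correlations from 0.98 to 0.997. With 6 tumors and so many candidates, correlations of this size describe these libraries and no more. Gdf11, a secreted signal of the TGF-beta family, had 12.01, 6.22 and 10.7 FPKM in SS18-SSX2 tumors and 31.3, 13.5 and 7.69 FPKM in SS18-SSX1 tumors. Dab1, an adaptor of reelin signaling in neurons, had 7.42, 4.03 and 6.06 FPKM in SS18-SSX2 tumors and 18.4, 9.61 and 4.86 FPKM in SS18-SSX1 tumors. Both share with most HoxA genes the peak in SS18-SSX1 tumor 1 and the minimum in SS18-SSX2 tumor 2.

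The tumors at the extremes of HoxA expression also differed in depth and in RNA of other cell types. Recovered totals were 14529837, 7285851 and 14357641 reads in SS18-SSX2 tumors 1, 2 and 3 and 13316372, 13767907 and 17546216 in SS18-SSX1 tumors 1, 2 and 3, so the tumor with the lowest HoxA level was also the shallowest. Summed FPKM of 15 skeletal muscle fibre genes was 118 to 5402 in SS18-SSX2 tumors and 342 to 12100 in SS18-SSX1 tumors, and tumor 2 was the highest of each genotype. Of those 2 tumors, SS18-SSX2 tumor 2 was lowest for 8 of the 10 HoxA genes and SS18-SSX1 tumor 2 was second highest for 7. They also differed in genotype and depth. Summed FPKM of 8 mast cell genes was 13.8 to 63.8 in SS18-SSX2 tumors and 64.9 to 2519 in SS18-SSX1 tumors, with the top value in SS18-SSX1 tumor 3. SS18-SSX1 tumor 1, the highest in HoxA, had the lowest summed level of 8 macrophage genes, at 36.8 FPKM. The ranges were 111 to 459 FPKM in SS18-SSX2 tumors and 36.8 to 310 FPKM in SS18-SSX1 tumors. Its summed level of 8 fibroblast genes was also the lowest, at 350.0 FPKM, with Pi16 at 0. The ranges were 777 to 1252 FPKM in SS18-SSX2 tumors and 350.0 to 2953 FPKM in SS18-SSX1 tumors. Most of that 350.0 FPKM was Col1a1, at 262 FPKM, which was lower still in SS18-SSX1 tumor 3, at 249 FPKM. Dpt, Dcn, Lum, Col1a2, Pi16 and Fap were lowest in SS18-SSX1 tumor 1. Pdgfra was not, at 76.2 FPKM there and 57.7 FPKM in SS18-SSX2 tumor 2, its lowest. Summed FPKM of 7 B and plasma cell genes was 5.19, 745 and 5.10 in SS18-SSX2 tumors 1, 2 and 3 and 2.203, 80.2 and 2.73 in SS18-SSX1 tumors 1, 2 and 3, with the top value in the tumor lowest in HoxA. Summed FPKM of 8 endothelial genes was 109, 27.7 and 102.5 in SS18-SSX2 tumors and 99.2, 21.2 and 53.8 in SS18-SSX1 tumors, lowest in tumor 2 of each genotype. Adding the muscle level to the fit gave a median HoxA fold change of -1.05, and the part of the other cell types in the HoxA values was not tested. Of the synovial sarcoma markers, the 6 in the table were at 1 FPKM or more in all 6 tumors, and Tle1, a corepressor used in diagnosis, had 35.4, 29.8 and 37.0 FPKM in SS18-SSX2 tumors and 24.4, 25.7 and 23.3 FPKM in SS18-SSX1 tumors.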

How the data were processed

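Total RNA from 6 snap-frozen tumors was extracted with RNeasy kits and made into Ribo-Zero libraries, per the labels' protocols. Per the submitters' processing notes the tool was Novoalign 2.08.03 and the build mm10, with no role stated. The authors deposited 1 table of FPKM values with 1 column per tumor, and its counting tool, gene models, strand handling and filter are unstated in the sources used here. The genes of the table were matched by Ensembl identifier to GENCODE mouse release 21 (GRCm38, the build mm10 names), which gave a symbol for 17029 of 17312. Hoxa2 to Hoxa13 lie between 52162417 and 52260880 on the minus strand of chromosome 6.

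The members and the gene lists were chosen with earlier results of these data known. The genotype fit used limma 3.58.1 (R 4.3.3; lmFit and trended eBayes) on log2(FPKM + 1), and its two-sided p-values were adjusted by Benjamini-Hochberg across the 13873 tested genes. The fit was run on simulated tumors with known changes, set larger than any HoxA fold change here and in less variable genes. That run does not show whether changes of the HoxA size would be found. Alternatives were pseudocounts of 0.1 and 0.5, TPM rescaling, upper quartile scaling, quantile normalization, no filter, a mean of at least 5 FPKM, untrended eBayes, muscle level as a covariate, a replicate block, leaving out both tumors numbered 2, and leaving out each tumor in turn. Genes named are all 10 members, up to 3 per list with the smallest p, and the 8 most correlated with the mean of the tested members; any other gene was chosen after its values were seen, and some genes are not reported here.

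Reads were recovered from the steps between low FPKM of single-exon genes, where 76.7% to 79.1% of low values came out whole within 0.02 reads. With the resulting totals all 10 members gave whole reads within 0.003 in every tumor, 5 of them at the annotated exon length and 5 at the smallest length that did so. Recovered reads served for depth, intervals and floors only, which cover counting error. Promoter sequences came from RefSeq (GRCm38.p6). Tables and figures were made with matplotlib 3.10.9, numpy 2.4.6 and pandas 2.3.3 (Python 3.11.15).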

Additional observations from a re-analysis of the deposited data

How the results depend on the processing

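The count of 0 called HoxA genes held under all 17 alternatives, and the adjusted p of the 8 tested genes ranged from 0.592 to 1. The median fold change, -0.88 with all tumors, stayed below 0 in each but moved with single tumors, between -1.66 without SS18-SSX1 tumor 3 and -0.30 without SS18-SSX1 tumor 1. The single reversal was Hoxa13 at 0.08 with both tumors numbered 2 left out, where fewer samples were fitted and the cause was not tested. Over all genes 9 were called, against 5 with a pseudocount of 0.1, 20 with both tumors numbered 2 left out, and 3 to 11 without each tumor in turn (3 without SS18-SSX2 tumor 3). The replicate block called 4 genes over all and 0 HoxA genes. Deviations from the group means of same-numbered tumors correlated at 0.38, 0.31 and -0.28, and those of differently numbered tumors at -0.44 to 0.23. Whether tumors of the same number are paired or share a batch is unstated and cannot be settled from these values. Of the 9 steps in the order of HoxA levels, 0 passed adjustment in any setting, and 5 tumors cannot give a p that would pass. Depth limits Hoxa4, Hoxa7 and all HoxA genes in SS18-SSX2 tumor 2, which had 0 to 30 reads each there.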
